A study of Homo sapiens with 7 samples.

Results

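SOX2 silencing in TE5 cells was examined by RNA-Seq in 2 of the 7 libraries of the series, chosen by their labels. One library held total RNA of TE5 cells with an shRNA against SOX2 (shSOX2), and the other held RNA of TE5 cells with a scramble shRNA that targets no gene. TE5 is an established line of esophageal squamous cell carcinoma, and both cultures grew in the same serum-supplemented medium. The shRNAs were delivered by lentivirus from the pLKO.1 vector, so the scramble cells carried the vector and a hairpin too. The other libraries were TE5 cells with shRNA against TP63 (shTP63) or CCAT1 (shCCAT1) and KYSE140 cells, a further esophageal squamous line, with scramble, shTP63 or shSOX2. Each condition had 1 library, and the SOX2 hairpin bears the same label in both lines. There was therefore no replicate check of any difference, and no p-value was computed.

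The question was which genes follow SOX2 in a squamous carcinoma line. SOX2 is an HMG-box transcription factor that keeps embryonic and foregut progenitor cells undifferentiated. Its locus on chromosome arm 3q is often amplified in squamous carcinomas, where it acts beside TP63, the master factor of stratified epithelium. SOX2-OT is a long non-coding RNA whose introns contain SOX2.

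Estimated counts were summed to genes and scaled between libraries with edgeR's TMM factors, and the results are called normalized counts. Library totals were between 68532611 and 98036494 estimated counts, 80657923 in TE5 scramble and 80528680 in TE5 shSOX2. The log2 fold change (LFC) was log2((shSOX2 + 1)/(scramble + 1)) of normalized counts. Genes with at least 100 estimated counts in 1 of the 2 libraries were called well counted, and a change past 1 or -1 on the log2 scale, a fold of 2, was called an increase or a decrease. Intervals in brackets are exact 95% intervals that cover counting error only. TE5 scramble was sequenced in lane 3 of another flow cell than TE5 shSOX2, which ran in lane 1 beside TE5 shTP63 and TE5 shCCAT1. A change due to the lane or flow cell and a change due to the shRNA therefore cannot be told apart against scramble, and the other TE5 knockdown libraries are given beside the main genes.

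SOX2 (ENSG00000181449, hg19 chr3:181429713-181432224) had 11923 normalized counts in TE5 scramble, 4718 in TE5 shSOX2, 8010 in TE5 shTP63 and 10598 in TE5 shCCAT1. The shSOX2 library was the lowest of the 4, at 39.6% of scramble, an LFC of -1.34 [-1.39 to -1.29]. Scaled for transcript length, this was 34.9 TPM in shSOX2 against 89.6 TPM in scramble. In KYSE140, SOX2 had 28614 normalized counts in scramble, 22058 in shSOX2 and 29868 in shTP63, an LFC of -0.38 upon SOX2 silencing. SOX2 was therefore the more deeply reduced in TE5 of the lines measured. SOX2-OT went from 745 to 327 normalized counts in TE5 (LFC -1.19 [-1.39 to -0.997]) and had an LFC of -1.09 in KYSE140. SOX2 lies within SOX2-OT, and other genes hold 5.0% of its 31-base words. TP63 had 26644 normalized counts in scramble and 30940 in shSOX2, an LFC of 0.22 [0.19 to 0.24].

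The squamous identity of the line was checked against 12 markers, of which 11 were well counted in TE5. TP63, KRT5, KRT17, DSG3, SFN, PKP1, S100A2, SERPINB5, PERP and COL17A1 stayed within a fold of 2, with SFN, a 14-3-3 protein of keratinocytes, the lowest of them at an LFC of -0.81. KRT14, a basal keratin, was near absent in TE5, at 29.1 normalized counts in scramble and 7.2 in shSOX2. KRT6A was the 1 marker that decreased. Markers of other cell types were counted over each whole list. Of 18 columnar markers 6 were well counted, with a summed level of 6226 normalized counts in scramble and 5228 in shSOX2. Of these 6, 5 lay below 0, at a median LFC of -0.26 over the 6. GATA4 went from 2991 to 2369, AGR2 from 1143.9 to 1006.6, CDX2 from 1056 to 942 and MUC5AC from 828.5 to 632.8. NKX2-1, a lung and thyroid factor, was the 1 above 0 and increased from 67.2 to 170.5 (LFC 1.33). Of 12 fibroblast markers 3 were well counted, at 3003 and 3671 in sum. COL3A1, a fibrillar collagen, went from 74.8 to 410.2 with 470.2 in shTP63, while PDGFRB stayed at 1.0 in both libraries. Of 9 endothelial markers 2 were well counted, at 618 and 975 in sum. CDH5, the endothelial cadherin, went from 282.7 to 723.5, while VWF, the von Willebrand factor, went from 335.8 to 251.5 and KDR, the VEGF receptor, was at 6.2 and 1.0. Of 14 leukocyte markers 2 were well counted, at 6197 and 6291 in sum, and PTPRC, the common leukocyte antigen, was at 12.1 and 11.7. Of 14 neural markers 4 were well counted, at 10084 and 8457 in sum, and CALB1 decreased, as given below. The part of these markers in the results was not tested.

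Of 14741 well-counted genes, 256 decreased (1.74%) and 208 increased (1.41%) upon SOX2 silencing. The median LFC over well-counted genes was -0.03, with an interquartile range from -0.25 to 0.19, and 87.1% of genes lay within 0.58 of 0. Of the decreases, 198 were protein-coding genes and 48 were long non-coding RNAs. Of the increases, 161 were protein-coding and 35 were long non-coding RNAs. The decreases were the better counted of the changes: 105 of 256 had at least 1000 counts, against 46 of 208 increases. The counting interval lay wholly past the fold for 133 decreases and 108 increases, and 25 decreases and 24 increases passed a fold of 4. The plot of change by level shows both sides. The genes next to the threshold were DHFR2 at -1.001 inside and CASC19 just outside, and CRISP3 at 1.007 inside and GAPLINC just outside.

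**Figure D1:**
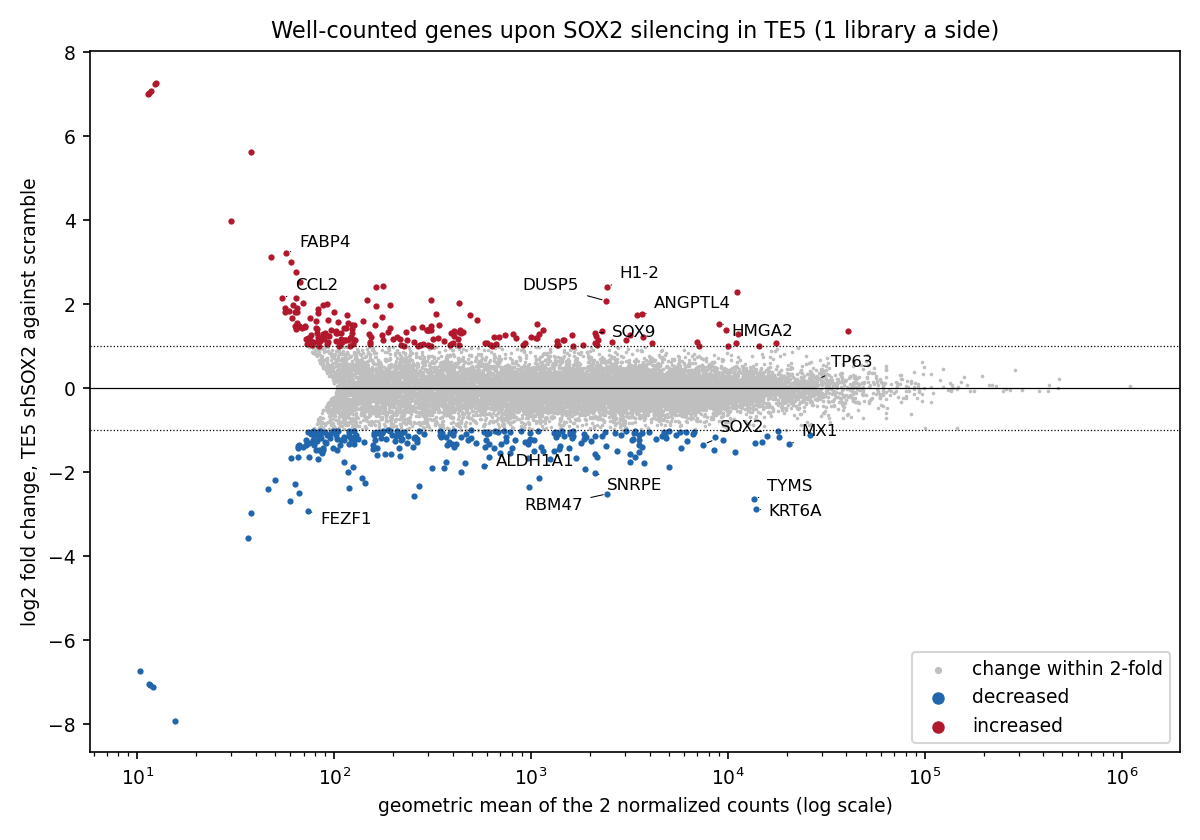
Each point is 1 of 14741 well-counted genes, with the geometric mean of its normalized counts in TE5 scramble and TE5 shSOX2 on a log axis and its LFC on the other. Decreases (256) are blue and increases (208) are red past the dotted lines at -1 and 1; the genes with the largest LFC hold few counts, while KRT6A and TYMS lie far from 0 at high counts. The 10 genes past 6 or -6 were listed at 0 in 1 library, and their LFC depends on the pseudocount.

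The 15 deepest decreases among genes with at least 1000 counts included enzymes of metabolism, proteins that handle RNA and 1 keratin. KRT6A (ENSG00000205420), a keratin of suprabasal and wounded squamous epithelium, had 37843 normalized counts in scramble, 5131 in shSOX2, 6019 in shTP63 and 17474 in shCCAT1, an LFC of -2.88 [-2.93 to -2.84] for shSOX2. All 3 TE5 knockdown libraries were below scramble, and KYSE140 shSOX2 was at an LFC of 0.10. KRT6A shares 41.4% of its words with other genes. KRT6C had an LFC of -2.67 with 51.8% of words shared and is uncertain.

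Among genes of nucleotide synthesis, TYMS was one of the 15 deepest decreases and PAICS passed the fold. TYMS (ENSG00000176890, hg19 chromosome 18), thymidylate synthase, which makes the thymidine nucleotide for DNA, had 33947 normalized counts in scramble, 5472 in shSOX2, 11608 in shTP63 and 25306 in shCCAT1. Its LFC was -2.63 [-2.67 to -2.59] in TE5 and -1.75 in KYSE140 shSOX2. ENOSF1, which overlaps TYMS on the opposite strand, stayed at 104.9% of scramble. PAICS, an enzyme of purine synthesis, went from 23197 to 9577 normalized counts (LFC -1.28 [-1.31 to -1.24]), with 4919 in shTP63, 19145 in shCCAT1 and an LFC of -1.44 in KYSE140. The shTP63 library was thus lower still for PAICS. TYMS meets the rule of passing the fold against every other TE5 library, so the place of shSOX2 below them is not a finding.

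RBM47, SNRPE and PRPF38A, of the same 15, encode proteins that act on RNA. RBM47 (ENSG00000163694), an RNA-binding protein of epithelial cells, had 5826 normalized counts in scramble, 1022 in shSOX2, 7736 in shTP63 and 5398 in shCCAT1. The shSOX2 library was the lowest of these 4, at an LFC of -2.51 [-2.61 to -2.41], and KYSE140 shSOX2 was at -1.74. RBM47 also meets the rule of passing the fold against every other TE5 library, so this order is not a finding. SNRPE, a core Sm protein of the spliceosome, had 4233 normalized counts in scramble, 1045 in shSOX2, 3311 in shTP63 and 5139 in shCCAT1 (LFC -2.02 [-2.12 to -1.92]; KYSE140 -1.60). PRPF38A, a spliceosome activation factor, went from 3781 to 1226 normalized counts, with 3656 in shTP63 and 3659 in shCCAT1 (LFC -1.62; KYSE140 -1.68). SNRPA, the U1 protein A, had an LFC of -1.03 [-1.09 to -0.97]. Of 49 well-counted genes in the list of spliceosome and SR proteins, 3 decreased and 0 increased, against 1.74% and 1.41% over all genes. RBM47, which is neither a core spliceosome nor an SR protein, is among the 3 and is counted in a further list below. The median LFC of the list was -0.11, near that of all genes.

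Enzymes of the lysosome, of peptide and aldehyde metabolism and of the mitochondrion were also among them. NEU1, the lysosomal sialidase, had 9615 normalized counts in scramble, 2631 in shSOX2, 12426 in shTP63 and 8628 in shCCAT1 (LFC -1.87 [-1.93 to -1.81]; KYSE140 -1.67). CNDP2, a cytosolic dipeptidase, had 5881, 1735, 6519 and 4588 in the same order (LFC -1.76 [-1.84 to -1.68]; KYSE140 -1.89). Both genes also meet the rule of passing the fold against all 3 other TE5 libraries, so the place of shSOX2 below them is not a finding. ALDH1A1, a retinaldehyde dehydrogenase used as a marker of stem-like cells, had 1086 normalized counts in scramble, 302 in shSOX2, 3237 in shTP63 and 1008 in shCCAT1 (LFC -1.84 [-2.04 to -1.66]). Its LFC in KYSE140 was -0.43. AKR7A2, an aldehyde reductase, went from 3003 to 948, with 1833 in shTP63 and 2245 in shCCAT1 (LFC -1.66 [-1.77 to -1.56]). ABHD10, a mitochondrial thioesterase, went from 2248 to 698, with 1965 in shTP63 and 2203 in shCCAT1 (LFC -1.69 [-1.81 to -1.56]).

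Cytoskeletal and signalling genes completed the list. MYLK, the myosin light chain kinase, went from 3641 to 967 normalized counts, with 1281 in shTP63 and 3776 in shCCAT1 (LFC -1.91 [-2.02 to -1.81]). CRMP1, a cytoskeletal protein of the collapsin response family, went from 2208 to 430, with 1415 in shTP63 and 849 in shCCAT1 (LFC -2.36 [-2.52 to -2.21]). CALB1, a calcium buffer known from neurons, went from 2306 to 525, with 1920 in shTP63 and 1308 in shCCAT1 (LFC -2.13 [-2.27 to -1.99]; KYSE140 -1.62). BTBD1, a BTB-domain protein, went from 6959 to 2023, with 6710 in shTP63 and 5507 in shCCAT1 (LFC -1.78 [-1.86 to -1.71]; KYSE140 -1.60). GNG10, a G protein gamma subunit, had an LFC of -1.62 but shares 93.4% of its words with other genes and is uncertain. The plot of counts by library shows KRT6A, TYMS, RBM47 and others in all 4 TE5 libraries.

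**Figure D2:**
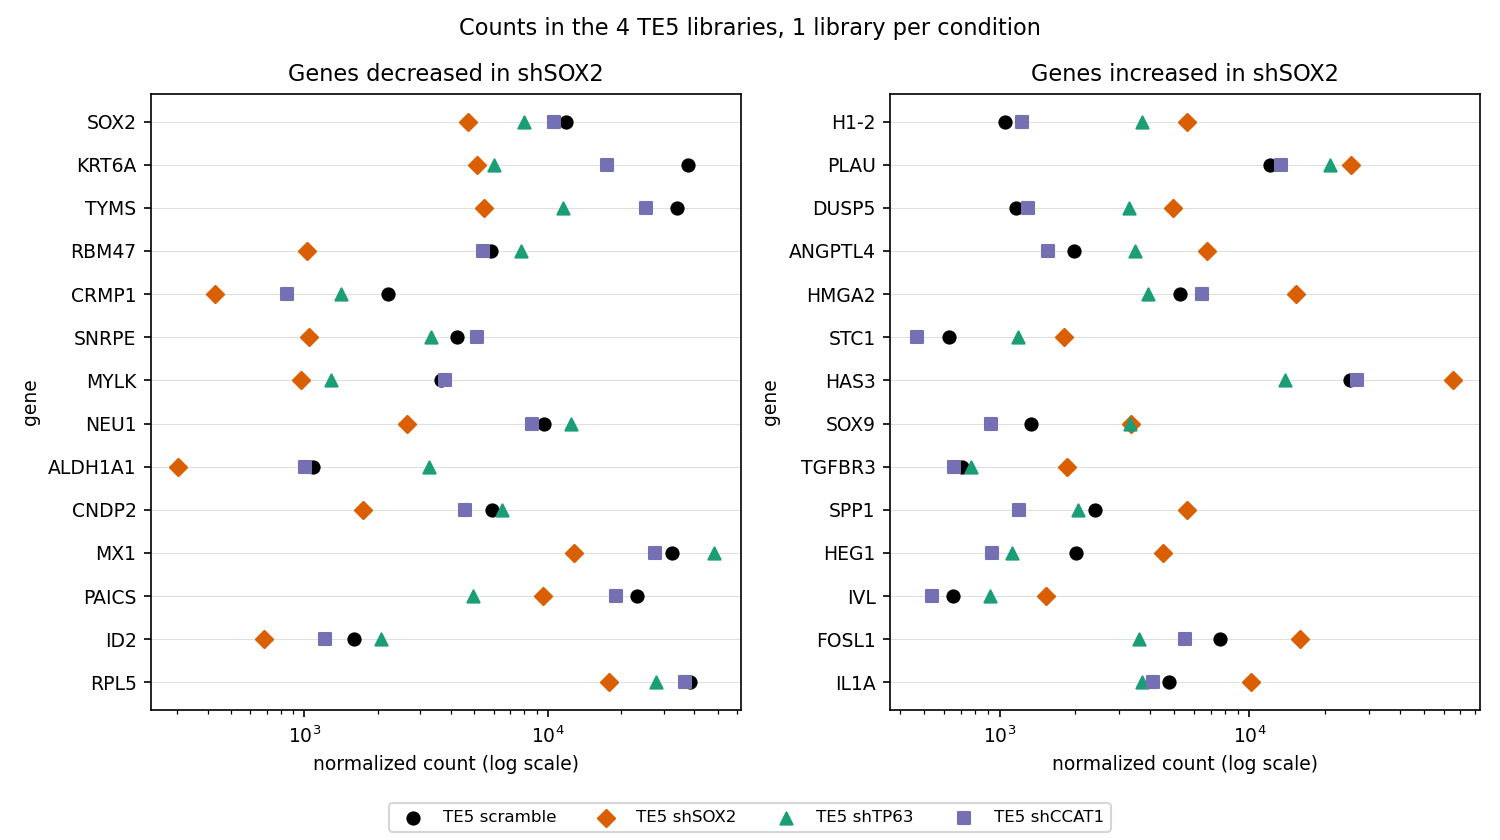
Normalized counts (log axis) of 14 decreased and 14 increased genes in the 4 TE5 libraries, 1 point per library. RBM47 lies at 1022 in shSOX2 against 5398 to 7736 in the other libraries, while KRT6A is low in shTP63 (6019) too, and SOX9 is as high in shTP63 (3322) as in shSOX2 (3356).

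Of the 256 decreases, 122 also passed the fold against TE5 shTP63 and 124 against TE5 shCCAT1, the libraries that shared the flow cell and lane of shSOX2, and 73 passed against both. The 10 of these with at least 1000 counts that lay farthest from 0 were TYMS, RBM47, CALB1, SNRPE, NEU1, BTBD1, CNDP2, ALDH1A1, ABHD10 and the uncertain GNG10. KRT6A, MYLK, CRMP1 and AKR7A2 were not among the 73, since shTP63 or shCCAT1 was low too. Of the 208 increases, 67 passed against shTP63, 113 against shCCAT1 and 48 against both. All 3 comparisons share the shSOX2 library.

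Many of the decreased genes held the 7-base word GAAGGAT in the 3′ UTR of their most abundant protein-coding transcript. The word had been named by earlier work on these data and is given here as a description. It was present in the 3′ UTR of 59 of 193 decreased genes with an annotated 3′ UTR (30.6%), of 9 of 158 increased genes (5.7%) and of 1167 of 12227 other well-counted genes (9.54%). Among genes with at least 1000 counts it was in 46 of 94 decreases (48.9%) and in 3 of 45 increases (6.67%), against 849 of 9137 other genes (9.29%). Among well-counted genes under 1000 counts the shares were close, with 13 of 99 decreases (13.1%), 6 of 113 increases (5.31%) and 318 of 3090 other genes (10.3%). So that the word can be read in its context, sites of the deepest decreases are shown from the hg19 genome with GENCODE annotation and 11 bases on either side, beside the word's position in the coding sequence of SOX2 itself, where it occurs once, from base 363 of 954. The capitals mark the word, coordinates are hg19, and each line reads 5′ to 3′ along the transcript.

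SOX2 coding sequence, chr3:181430500-181430528, plus strand: acgctcatgaaGAAGGATaagtacacgct
TYMS 3′ UTR, chr18:673006-673034, plus strand: caaaggagctcGAAGGATattgtcagtct
RBM47 3′ UTR, chr4:40425834-40425862, minus strand: ctccttctagtGAAGGATtgtcacagagt
SNRPE 3′ UTR, chr1:203839079-203839107, plus strand: gaaattgttgaGAAGGATacagtttgttt
NEU1 3′ UTR, chr6:31826980-31827008, minus strand: aaatttttaatGAAGGATaatgaatattt
CNDP2 3′ UTR, chr18:72188289-72188317, plus strand: ctcactaactgGAAGGATgattttgtctc
BTBD1 3′ UTR, chr15:83686209-83686237, minus strand: gcatttatagaGAAGGATattttgtagta
PRPF38A 3′ UTR, chr1:52882412-52882440, plus strand: atctgtatgtgGAAGGATtaagatctccc

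The flanks of these sites differ between genes, and the word is what they have in common by construction. Of genes with the word in the 3′ UTR, 4.78% decreased in TE5 shSOX2, against 1.18% of genes without it, and the medians were -0.11 and -0.02. In KYSE140 shSOX2, which shares no library with the TE5 comparison, 5.88% of genes with the word and 1.25% of genes without it decreased. The word came from earlier work on these data, so the KYSE140 shares are no independent check of it. In the libraries of other hairpins the shares were close: 5.18% and 4.84% in TE5 shTP63, and 2.35% and 2.48% in TE5 shCCAT1. In KYSE140 shTP63 they were 0.789% and 1.61%. Both TE5 comparisons use the scramble library of the shSOX2 comparison. Longer 3′ UTRs hold any word more often, so the shares were also taken by length. They were 10.8% and 1.29% under 1000 bases, 5.51% and 0.983% from 1000 to 2000 bases, and 2.96% and 1.13% above. Of the 15 deepest decreases with at least 1000 counts, 10 hold the word in the 3′ UTR: those shown and MYLK, CRMP1 and GNG10. KRT6A, CALB1 and ABHD10 hold it in the coding sequence, and ALDH1A1 and AKR7A2 in neither. The target sequence of the SOX2 shRNA was not given in the sources used here, and no cause of the pattern was tested.

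**Figure D3:**
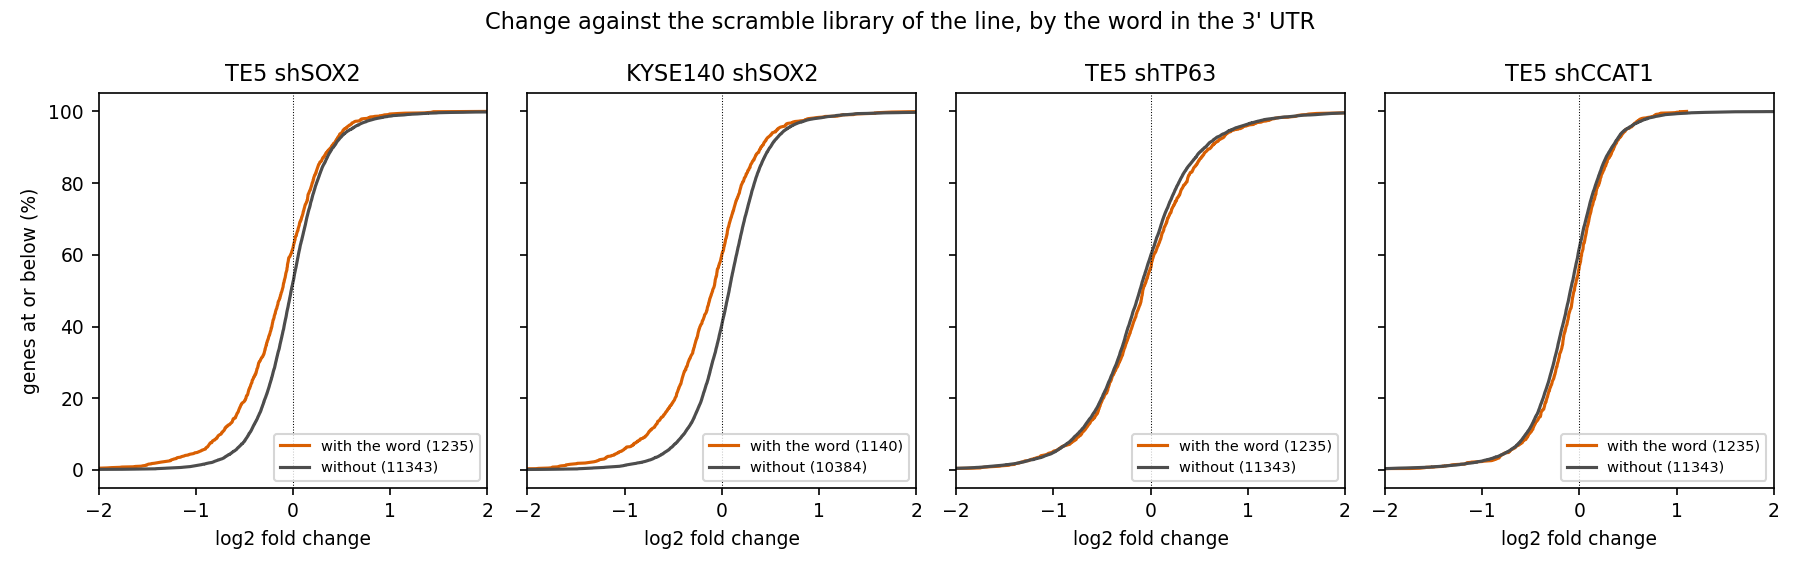
Cumulative share of genes by LFC against the scramble library of the line, for genes with the word in the 3′ UTR (orange) and without it (grey), in 4 knockdown libraries. The orange curve lies to the left of the grey one in TE5 shSOX2 (medians -0.11 and -0.02) and KYSE140 shSOX2 (-0.09 and 0.08), and close to it in TE5 shTP63 and TE5 shCCAT1.

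The increases included genes of secreted and cell-surface proteins, feedback genes of the MAPK pathway and histone genes. PLAU, the urokinase plasminogen activator, had 12046 normalized counts in scramble, 25635 in shSOX2, 21090 in shTP63 and 13430 in shCCAT1 (LFC 1.09 [1.06 to 1.12]; KYSE140 1.11). The shSOX2 library was the highest of the 4, with shTP63 next to it. ANGPTL4, a secreted inhibitor of lipoprotein lipase, went from 1981 to 6740, with 3487 in shTP63 and 1564 in shCCAT1 (LFC 1.77 [1.69 to 1.84]). STC1, the hormone stanniocalcin, went from 630 to 1813, with 1184 in shTP63 and 467 in shCCAT1 (LFC 1.52 [1.39 to 1.66]). SPP1, osteopontin, went from 2419 to 5614, with 2056 in shTP63 and 1196 in shCCAT1 (LFC 1.21 [1.14 to 1.28]).

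HAS3, HEG1, LTBP4, TGFBR3 and UGCG are named because they passed the fold against all 3 other TE5 libraries, so their order among the libraries is not a finding. HAS3, a hyaluronan synthase, had 25252 normalized counts in scramble, 65340 in shSOX2, 13868 in shTP63 and 26866 in shCCAT1 (LFC 1.37 [1.35 to 1.39]). HEG1, a membrane mucin, had 2031, 4522, 1125 and 934 (LFC 1.15 [1.08 to 1.23]; KYSE140 1.93). LTBP4, which binds latent TGF-beta, had 1467, 3262, 924 and 1288 (LFC 1.15). TGFBR3, the TGF-beta co-receptor betaglycan, had 706, 1863, 766 and 655 (LFC 1.40 [1.27 to 1.53]; KYSE140 1.11). UGCG, glucosylceramide synthase, went from 7198 to 17678, with 7864 in shTP63 and 6894 in shCCAT1 (LFC 1.30).

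Of the further increases, HMGA2 and SOX9 encode regulators of transcription. HMGA2, a chromatin protein of embryonic and tumour cells, had 5283 normalized counts in scramble, 15395 in shSOX2, 3929 in shTP63 and 6442 in shCCAT1 (LFC 1.54 [1.50 to 1.59]; KYSE140 1.17). SOX9, a SOX factor of foregut, cartilage and glands, had 1337, 3356, 3322 and 923 (LFC 1.33 [1.23 to 1.42]; KYSE140 -0.18). SOX9 was thus high in shTP63 as well as in shSOX2. TNRC6A, a partner of Argonaute in silencing by small RNAs, went from 6042 to 15742, with 9985 in shTP63 and 7774 in shCCAT1 (LFC 1.38; KYSE140 1.34). STK40, a kinase-like gene, and LMBR1L, a membrane receptor gene, each had an LFC of 1.28, and MAP7D2, a microtubule protein, one of 1.22 [1.05 to 1.38].

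Histone genes were among the highest increases. H1-2 had 1051 normalized counts in scramble, 5641 in shSOX2, 3709 in shTP63 and 1228 in shCCAT1 (LFC 2.42 [2.33 to 2.52]; KYSE140 1.58). H2AC6 went from 1892 to 6373 (LFC 1.75 [1.68 to 1.83]) and H2BC5 from 1434 to 3699 (LFC 1.37 [1.28 to 1.46]), with 6612 and 6624 in shTP63. The family was taken after these values were seen. Of 23 well-counted genes with H1, H2AC, H2BC, H3C or H4C symbols, 14 increased and 0 decreased, at a median LFC of 1.35, against 1.41% increased over all genes. Their summed level was 74059 normalized counts in scramble and 93267 in shSOX2, so the sum rose by less than the median member. The same genes had medians of 1.56 in TE5 shTP63, 0.20 in TE5 shCCAT1 and, for the 15 well counted there, 1.05 in KYSE140 shSOX2. The TE5 values share the scramble library, and against TE5 shTP63 the median in TE5 shSOX2 was -0.18.

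The SOX family and the squamous transcription factors were followed as lists. Member counts of lists are to be read beside the 1.74% of all well-counted genes that decreased and the 1.41% that increased. Of 19 SOX genes, 11 were well counted. SOX2 decreased and SOX9 increased. SOX21 went from 950 to 566 normalized counts (LFC -0.75 [-0.90 to -0.59]) and SOX1 from 182 to 107 (LFC -0.76 [-1.13 to -0.41]), both within a fold of 2, and SOX15, a squamous SOX gene, was at -0.14. Of 29 squamous transcription factors, 2 decreased and 0 increased, at a median LFC of -0.08. ID2, an inhibitor of basic helix-loop-helix factors, went from 1594 to 679 normalized counts, with 2070 in shTP63 and 1212 in shCCAT1 (LFC -1.23 [-1.36 to -1.10]). GRHL3, a barrier differentiation factor, went from 823 to 399, with 1140 in shTP63 and 284 in shCCAT1 (LFC -1.04). KLF4, KLF5, ZNF750, TFAP2C and MYC lay between -0.18 and 0.36.

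Of the stratified keratins 9 were well counted, and KRT6A and KRT6C decreased while 0 increased. KRT5, the basal keratin, had 71376 normalized counts in scramble, 82974 in shSOX2, 20488 in shTP63 and 25675 in shCCAT1 (LFC 0.22), so the fall in KRT6A had no counterpart in KRT5. KRT13, of the mucosal suprabasal layers, had an LFC of -0.70 and KRT75 one of 0.98. Of 21 genes of the cornified envelope and epidermal differentiation, 1 increased and 0 decreased, at a median of 0.17. This was IVL, involucrin, which went from 652 to 1534, with 913 in shTP63 and 537 in shCCAT1 (LFC 1.23 [1.10 to 1.37]). In KYSE140 shSOX2, IVL had an LFC of 3.09, from only 17.7 normalized counts in KYSE140 scramble to 158.3. LYPD3 was at 0.99, ABCA12, a lipid transporter of the barrier, at 0.81 and FLG, filaggrin, at -0.70. Desmosome and hemidesmosome genes had 0 members past the fold among 11 and 22, and LAMB3, a laminin chain of hemidesmosomes, was at 0.65.

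Genes of proliferation were lower by small amounts across the list. Of 67 well-counted genes of DNA replication and nucleotide synthesis, 62 lay below 0 and the median LFC was -0.42, against 53.3% below 0 and -0.03 over all well-counted genes. Only TYMS and PAICS decreased past the fold, and 0 increased. PCNA, the replication clamp, went from 17139 to 9540 normalized counts (LFC -0.84 [-0.88 to -0.81]), with 10347 in shTP63 and 18803 in shCCAT1. CDC45 was at -0.78, and MCM7, a subunit of the replicative helicase, at -0.71. Of 71 mitosis genes 64 lay below 0, at a median of -0.28 with 0 members past the fold. CENPM was the lowest of these at -0.87. The same lists had medians of -0.71 and -0.45 in TE5 shTP63, -0.10 and -0.01 in TE5 shCCAT1, and -0.18 and -0.18 in KYSE140 shSOX2. Among 30 genes of G1 control, CDK2, the kinase of S-phase entry, went from 9598 to 4038, with 7067 in shTP63 and 9546 in shCCAT1 (LFC -1.25 [-1.30 to -1.20]; KYSE140 -0.68), and E2F5 was at -1.01. The D cyclins lay the other way, with CCND2 at 0.90 and CCND1 at 0.87.

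Interferon-stimulated genes had the lowest median of all lists, -0.47, with 40 of 45 below 0, 2 decreased and 0 increased. MX1, an antiviral GTPase, had 32385 normalized counts in scramble, 12839 in shSOX2, 48256 in shTP63 and 27582 in shCCAT1 (LFC -1.33 [-1.36 to -1.30]). CMPK2, a mitochondrial nucleotide kinase induced by interferon, went from 7012 to 3250, with 13359 in shTP63 and 5610 in shCCAT1 (LFC -1.11 [-1.17 to -1.05]). In both genes shSOX2 was lowest and shTP63 highest. USP18 was at -0.81 and RSAD2, viperin, at -0.79. The list's median was 0.72 in TE5 shTP63, -0.05 in TE5 shCCAT1 and 0.48 in KYSE140 shSOX2, so that the medians of the lines lay on opposite sides of 0. CMPK2 and RSAD2 were under 100 counts in both KYSE140 libraries. Among 26 HLA and antigen presentation genes 0 passed the fold, and NLRC5, the activator of HLA class I genes, was at -0.90.

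**Figure D4:**
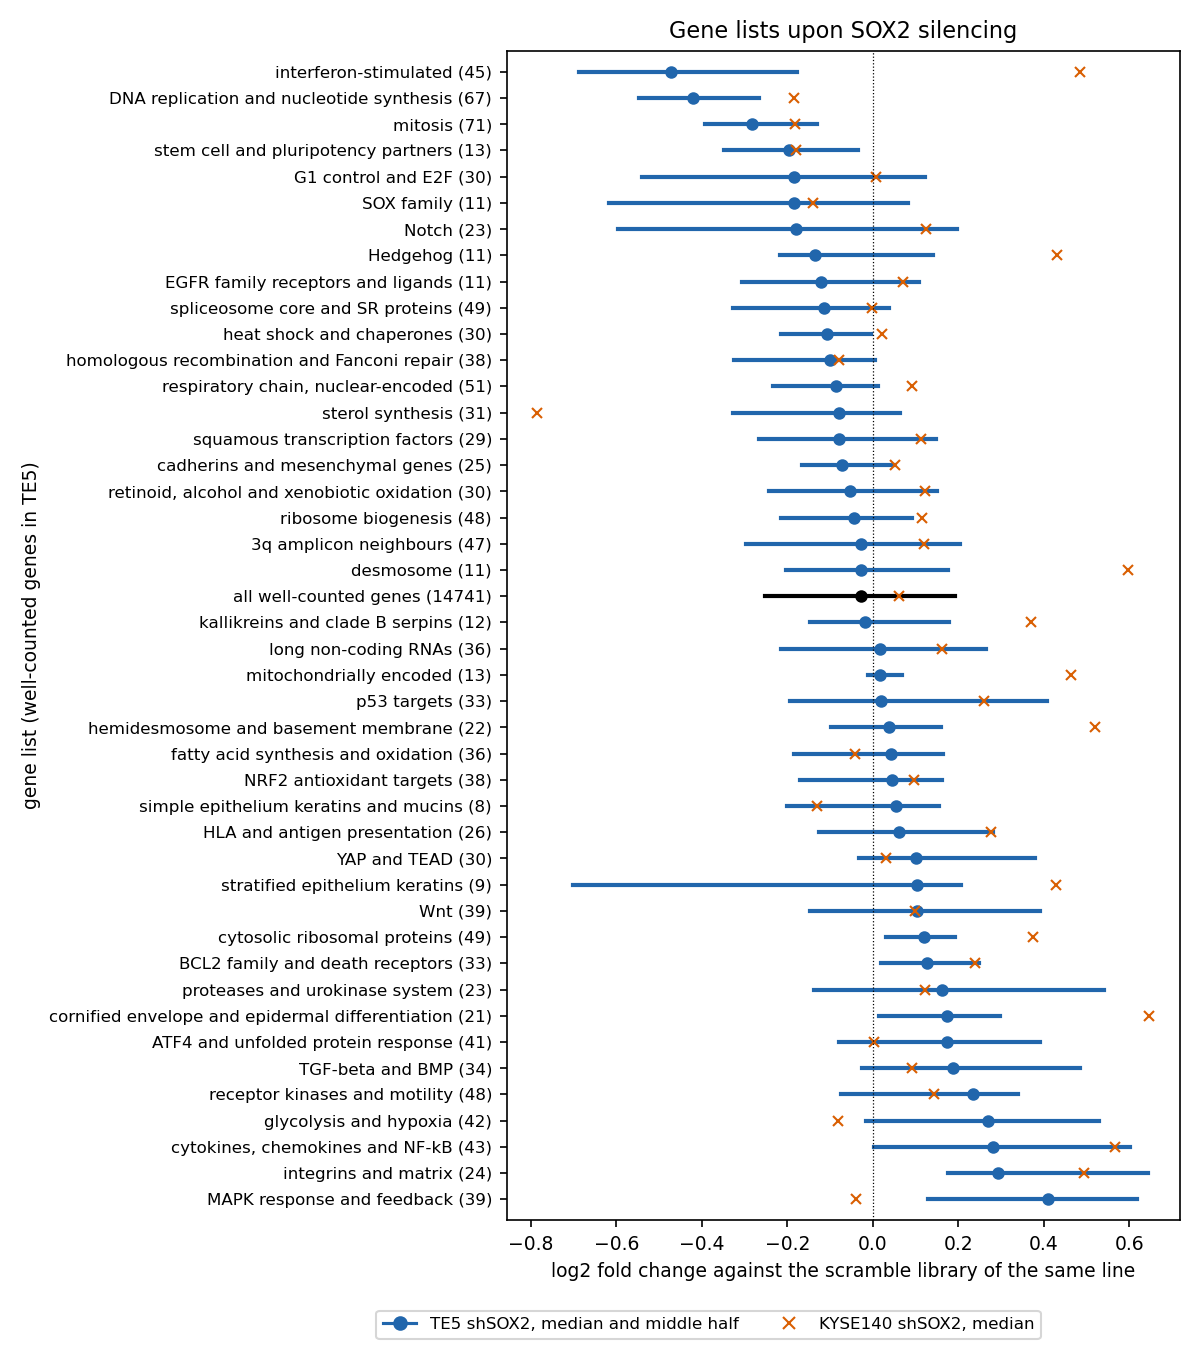
Median LFC (circle) and interquartile range (line) of each gene list in TE5 shSOX2, with the list's median in KYSE140 shSOX2 (cross) and the number of well-counted genes in brackets; marker lists are not drawn. The interferon-stimulated and DNA replication lists lie lowest in TE5 (-0.47 and -0.42) and the MAPK list highest of those drawn (0.41), with all well-counted genes in black at -0.03.

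Marker lists aside, MAPK response and feedback genes had the highest median, 0.41, with 6 of 39 increased and 0 decreased. The shares over all well-counted genes were 1.41% and 1.74%. DUSP5, a nuclear phosphatase of ERK, had 1167 normalized counts in scramble, 4956 in shSOX2, 3304 in shTP63 and 1297 in shCCAT1 (LFC 2.08 [1.99 to 2.18]). SPRY4, a feedback inhibitor of receptor signalling, went from 270 to 706 (LFC 1.38 [1.18 to 1.60]). ETV1, an ETS factor, went from 278 to 696 (LFC 1.32) and was at 0.17 against TE5 shTP63. FOSL1, an AP-1 subunit, went from 7599 to 15968, with 3602 in shTP63 and 5509 in shCCAT1 (LFC 1.07), and FOSB, a further subunit, from 2826 to 5936, with 6302 in shTP63 (LFC 1.07). KLF2 was at 1.13. DUSP6, a cytoplasmic phosphatase of ERK, was at 0.41, EGR1 at 0.23 and SPRY2 at -0.06, so that the immediate and feedback genes did not all lie to one side of the fold. The list's median was 0.30 in TE5 shTP63, -0.22 in TE5 shCCAT1 and -0.04 in KYSE140 shSOX2. Against TE5 shTP63 its median in TE5 shSOX2 was -0.075. Of the EGFR family and its ligands, 11 were well counted and 0 passed the fold.

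Integrins and matrix genes had 3 of 24 increased and 0 decreased, with a median of 0.29 and 3 below 0. For this and the next lists, the shares over all well-counted genes were 1.41% increased and 1.74% decreased. The median of integrins and matrix genes was 0.25 in TE5 shTP63 and -0.57 in TE5 shCCAT1. LOX, lysyl oxidase, went from 186 to 491 normalized counts, with 172 in shTP63 and 80 in shCCAT1 (LFC 1.39 [1.15 to 1.66]). TNC, tenascin C, went from 262 to 624, with 79 in shTP63 and 149 in shCCAT1 (LFC 1.25; KYSE140 1.63). ITGB6, which pairs with ITGAV to activate TGF-beta, was at 1.02 [0.97 to 1.07] and ITGAV at 0.94. In the TGF-beta and BMP list 4 of 34 increased, TGFBR3, LTBP4 and GDF15 among them, the last from 10196 to 20516 normalized counts, with 34224 in shTP63. Of the cytokine, chemokine and NF-kB genes 2 of 43 increased, at a median of 0.28. This median was 0.575 in TE5 shTP63 and -0.06 in TE5 shCCAT1, and -0.26 for TE5 shSOX2 against TE5 shTP63. IL1A, the alarm cytokine of keratinocytes, went from 4755 to 10196, with 3720 in shTP63 and 4119 in shCCAT1 (LFC 1.10 [1.05 to 1.15]; KYSE140 1.33). CCL2, a monocyte attractant, went from 24.9 to 114 normalized counts (LFC 2.15 [1.55 to 2.90]) and was at 0.42 against TE5 shTP63.

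The other signalling lists are given by their members past the fold, beside 1.74% decreased and 1.41% increased over all well-counted genes. LEF1, a nuclear factor of Wnt signalling, went from 250 to 650 normalized counts, with 46 in shTP63 (LFC 1.38 [1.16 to 1.60]), and was the 1 increase among 39 Wnt genes. LFNG, a glycosyltransferase that modifies NOTCH receptors, went from 2248 to 1102 (LFC -1.03) and was the 1 decrease among 23 Notch genes. ANKRD1, a target of YAP, went from 1461 to 600, with 2972 in shTP63 (LFC -1.28 [-1.43 to -1.14]). INSR, the insulin receptor, was at -1.04, and IGF1R, its close relative, at 0.94 within the fold. The list of 25 cadherins and mesenchymal genes also held RBM47, an RNA-binding protein of epithelial cells that is neither. The 2 decreases of the list were RBM47 and CDH11, the latter at -1.22. CDH1 and CDH3, the classical epithelial cadherins, were at 0.39 and 0.44. Matrix-degrading and urokinase genes went both ways. MMP10, stromelysin-2, went from 658 to 249 normalized counts, with 273 in shTP63 and 1004 in shCCAT1 (LFC -1.40), while PLAU increased. Hedgehog, BCL2 and death receptor, NRF2, kallikrein and serpin B lists had 0 members past the fold.

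Metabolic lists mostly lay near all genes. SLC2A3, a glucose transporter, went from 1820 to 688 normalized counts, with 6700 in shTP63 and 755 in shCCAT1 (LFC -1.40 [-1.53 to -1.27]; KYSE140 -2.41). DDIT4, a stress-induced inhibitor of mTORC1, had an LFC of 1.01, and VEGFA, the endothelial growth factor, one of 0.83 among 42 genes of glycolysis and hypoxia at a median of 0.27. ABCG1, a cholesterol exporter, went from 1724 to 614 (LFC -1.49 [-1.63 to -1.35]) and was the 1 decrease of 31 sterol genes. CYP24A1, which degrades vitamin D, went from 43.7 to 154 (LFC 1.79), and PPARA, a receptor for fatty acids, from 642 to 1350 (LFC 1.07). The median of the sterol list was -0.08 in TE5 and -0.79 in KYSE140. RPL5 was the 1 of 49 cytosolic ribosomal protein genes past the fold, from 38399 to 17891, with 27989 in shTP63 and 36646 in shCCAT1 (LFC -1.10 [-1.13 to -1.08]; KYSE140 -1.93), while the list's median was 0.12. SDHB, of complex II, was likewise the 1 of 51 respiratory chain genes, at -1.07. CRYAB, a small heat shock protein, was at -1.29, CRELD2, an endoplasmic reticulum chaperone gene, at -1.24 and HSP90AA1 at -0.94. Of the list members past the fold, CDK2, E2F5, MX1, ID2, LFNG, INSR, ABCG1 and CRELD2 hold the word GAAGGAT in the 3′ UTR, and PAICS, SNRPA, RPL5, SDHB and MFN1 in the coding sequence. Carriers alone are named here, and the members without the word were not counted. Among genes with an annotated 3′ UTR, 20.7% of decreased, 9.49% of increased and 13.8% of other genes held it in the coding sequence only. HEG1, an increase, holds it in the 3′ UTR.

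Mitochondrial proteins among the decreases were picked out after their values were seen. TIMM17A, of the inner membrane translocase, had an LFC of -1.56 in TE5 and -1.29 in KYSE140. HCCS, which attaches haem to cytochrome c, was at -1.38 and -0.79, and COQ5, of ubiquinone synthesis, at -1.18 and -0.85. Of 76 mitochondrial ribosomal protein genes, MRPL15 (-1.50) and MRPL16 (-1.51) decreased and 0 increased, at a median of -0.11. These 5 genes hold the word in the 3′ UTR, as do 59 of 193 decreased genes (30.6%). Since they were picked, they give no share for mitochondrial genes. ABHD10, SDHB and MFN1, further decreases with mitochondrial proteins, hold the word in the coding sequence. Of the 3q genes around SOX2, 47 were well counted. MFN1, a mitochondrial fusion gene of that arm, decreased beside SOX2 and SOX2-OT (LFC -1.05), and PIK3CA was at 0.21.

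Among the long non-coding RNAs of a list, 36 were well counted, SOX2-OT decreased and H19 increased. H19, an imprinted RNA of fetal tissue, went from 269 to 688 normalized counts, with 556 in shTP63 and 222 in shCCAT1 (LFC 1.35 [1.15 to 1.57]; KYSE140 3.06). SOX21-AS1, next to SOX21, was at -0.92. CASC19, from the region that also holds MYC, went from 620 to 309 normalized counts and was at 229 in shTP63 and 228 in shCCAT1, so scramble stood apart above all 3 knockdown libraries. MALAT1 and NEAT1 were both at 0.46.

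Well-counted genes under 1000 counts carried the largest fold changes and the widest intervals. FEZF1, a forebrain transcription factor gene, went from 201 to 26 normalized counts (LFC -2.93 [-3.63 to -2.36]), CCNA1, the germline cyclin A, from 621 to 104 (LFC -2.57 [-2.91 to -2.29]) and PLAAT1 from 105 to 13 (LFC -2.96). FABP4, a fatty acid carrier of fat cells, went from 18 to 174, with 15 in shTP63 and 14 in shCCAT1 (LFC 3.23 [2.58 to 4.11]). MYH3 went from 6.5 to 119.5, with 315.6 in shCCAT1, and ZNF254 was at 2.77 and COL3A1 at 2.44. ADM2 and MYLK4 were listed at 0 in shSOX2 and had 142 and 106 normalized counts in scramble, at least 46.0-fold and 34.2-fold higher than the 3.09 that a count of 0 allows. GOLGA6L9, UGT1A3 and MYZAP were also listed at 0 in shSOX2, with 81.8%, 87.0% and 61.3% of their words shared, and are uncertain. KIF24, KLHL30 and FAM117B were listed at 0 in scramble and had 155, 131 and 129 in shSOX2, at least 49.6-fold, 42.1-fold and 41.3-fold higher than the floor of 3.12. These bounds cover the counting error of the 0 alone. ADM2 was also at 0 in shCCAT1 and had 414 in shTP63. FAM117B was also at 0 in shTP63, and KIF24 and KLHL30 at 0 in shCCAT1. FAM21D shares 100% of its words and is uncertain.

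KYSE140 shSOX2 against KYSE140 scramble shares no library with the TE5 comparison, though it shares the label of the hairpin, and its libraries also ran in different lanes. Of the 256 TE5 decreases, 184 were well counted in KYSE140 and 59 of them decreased there too (32.1%), against 2.25% of the 13861 genes well counted in KYSE140. Their median LFC in KYSE140 was -0.70 and 154 lay below 0, while 5 passed the fold upwards. Of the increases, 128 were well counted in KYSE140 and 28 increased (21.9%), against 2.42% of all. Their median was 0.28, with 93 above 0 and 4 past the fold downwards. Over the 12880 genes well counted in both lines the KYSE140 median was 0.06. Of the TE5 decreases with the word in the 3′ UTR, 29 of 53 decreased in KYSE140 (54.7%), and of those with it in neither 3′ UTR nor coding sequence 14 of 63 did (22.2%). Since the word came from earlier work on these data, these shares are a description only. SOX9, DUSP5 and ANGPTL4 did not pass the fold in KYSE140. SOX2 itself fell less in KYSE140, and its part in this difference was not tested.

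**Figure D5:**
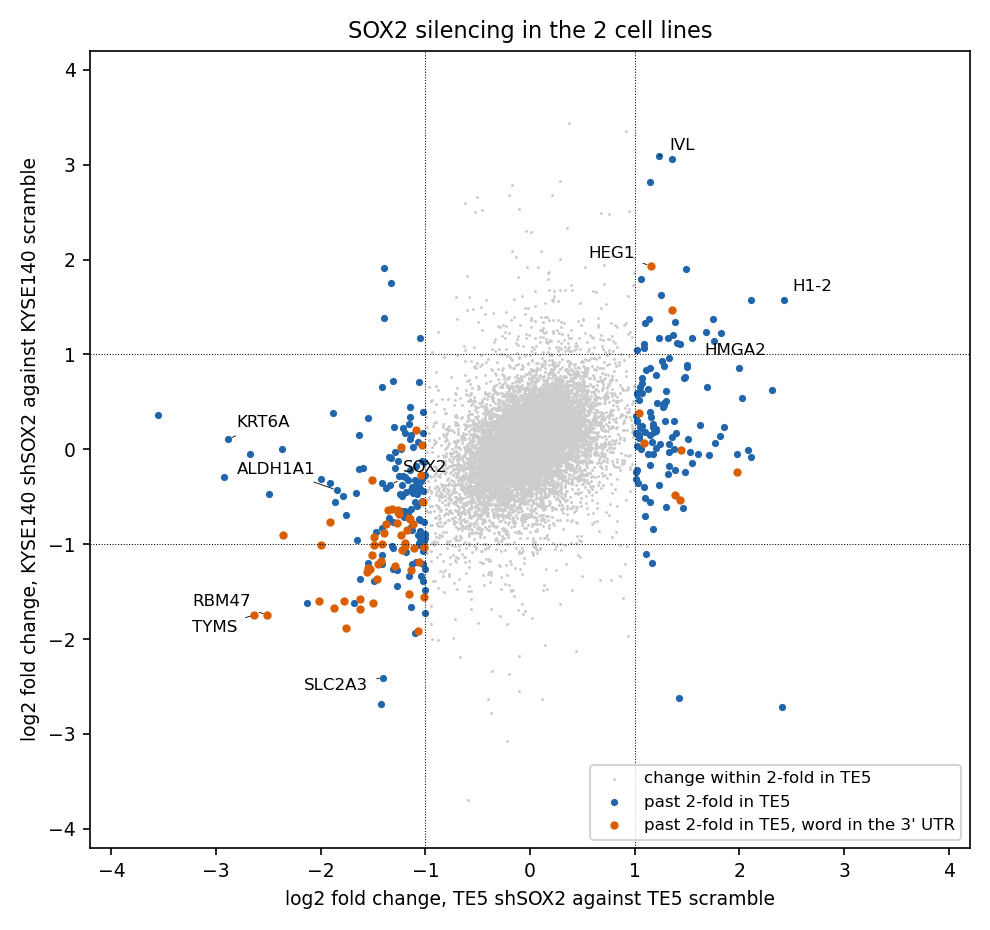
LFC of 12880 genes upon SOX2 silencing in TE5 and in KYSE140, 1 library a side in each line, with genes past a fold of 2 in TE5 in blue and those with the word in the 3′ UTR in orange; 10 genes lie outside the axes. RBM47 and TYMS are low in both lines, and KRT6A is low in TE5 and at 0.10 in KYSE140. IVL is at 1.23 and 3.09, the latter from only 17.7 normalized counts in KYSE140 scramble.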

How the data were processed

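Total RNA of each culture was sequenced as paired-end reads of 100 bases. The authors quantified transcripts with kallisto against Ensembl version 82 (hg19) and deposited estimated counts, TPM (abundance scaled for transcript length and depth) and effective lengths per transcript; versions were not given in the sources used here. The authors used DESeq2 in their own analysis.

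Here, estimated counts were summed to genes through GENCODE version 44 lifted to hg19. Of 196354 transcripts 182863 were assigned, and the rest, with 6.42% of counts, were not analysed, CCAT1 among them. Counts were scaled by TMM (edgeR 4.0.16 in R 4.3.3) over the 7 libraries. The pseudocount was 1, and exact Clopper-Pearson intervals cover counting error only. No test was run, since each condition had 1 library. For each gene, 1 in 16 of its 31-base words was looked up in all other genes, and genes with 50% or more of them shared are named as uncertain. Scripts, tested on simulated data, used scipy 1.17.1, matplotlib 3.10.9, pandas 2.3.3 and numpy 2.4.6 under Python 3.11.15.

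The members, the 49 gene lists and the word GAAGGAT were chosen with earlier results of these data known. Named were SOX2, SOX2-OT and TP63; the 15 protein-coding decreases and increases with at least 1000 counts, and the 8 of each under 1000 counts, whose intervals lay farthest from 0; the 10 of each past the fold against every TE5 library; and up to 5 members of each list, with members that define it. Some genes that the rule gives are not reported here. Genes beyond this rule are said to be chosen after their values were seen, or stand as neighbours of a threshold or in a marker check. The word was searched on the sense strand of the 3′ UTR and coding sequence of each gene's most abundant protein-coding transcript (GENCODE, hg19). Alternatives were other scalings, including DESeq2 1.42.0 size factors, other filters, thresholds, pseudocounts and counts, and other reference libraries.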

Additional observations from a re-analysis of the deposited data

How the results depend on the processing

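No paired analysis was possible because TE5 had 1 library per condition, and for the same reason no replicate could be left out. A fit over both lines with the line as a term, which asks for a change common to TE5 and KYSE140, was not run. Intervals cover counting error only, well-counted genes under 1000 counts carry most of the largest changes, and 6.42% of counts belong to transcripts not analysed here. Other scalings between libraries gave 206 to 262 decreases and 204 to 248 increases against 256 and 208, counts scaled for transcript length gave 269 and 220, a pseudocount of 10 gave 228 and 187, and with upper-quartile factors the increases (248) outnumbered the decreases (206). Filters moved the counts more, to 1124 decreases and 1434 increases at 10 counts, to 4633 and 5235 at 1 count, and to 105 and 46 at 1000 counts. A log2 threshold of 0.58 gave 1079 and 826, and intervals wholly past the fold gave 133 and 108. The SOX2 log2 fold change was -1.28 with upper-quartile factors, against -1.34.

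With TE5 shCCAT1 in place of scramble there were 582 decreases and 541 increases, and with TE5 shTP63 1092 and 671, and SOX2 was at -1.17 and -0.76. Of the 53 genes past the fold that the naming rule gave, 33 passed against shTP63, while the members of the gene lists past the fold went from 57 to 127 against shCCAT1 and 196 against shTP63. The share of decreased genes with the word in the 3′ UTR was 19.3% against shTP63 and 48.9% at 1000 counts, alternatives chosen after seeing the data, against 30.6%. Single genes changed sign. Against shCCAT1, ANKRD1 was at 0.25, CDH11 at 0.15, FAM117B at -0.64, GRHL3 at 0.49 and MYH3 at -1.39. Against shTP63, CDH11 was at 0.32, CDH5 at -0.93, COL3A1 at -0.20, CRISP3 at -0.83, CRYAB at 0.52, FAM21D at -0.33 and FOSB at -0.086. In the same comparison GDF15 was at -0.74, H2AC6 at -0.053, H2BC5 at -0.84, INSR at 0.15 and KRT6C at 0.15. LMBR1L was at -0.43 there, PAICS at 0.96 and ZNF254 at -0.67. Against shCCAT1, ADM2 (0.039), GOLGA6L9 (0) and UGT1A3 (0.001) were listed at 0 in both libraries, which is no reversal. GOLGA6L9 was at 0 against shTP63 for the same reason. The cause of these differences was not tested.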

Other observations

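Genes of the ZNF zinc finger family, the largest group of transcription factor genes, leaned upwards in TE5 shSOX2 by small amounts. The family was chosen after its values were seen. Of 380 well-counted members, 264 lay above 0, at a median log2 fold change of 0.14 against -0.03 over all well-counted genes, while 3 decreased and 7 increased. The medians were -0.03 in TE5 shTP63, 0.20 in TE5 shCCAT1 and, over 352 members, 0.21 in KYSE140 shSOX2. The upward lean was thus shared by TE5 shCCAT1, and against TE5 shCCAT1 the median in TE5 shSOX2 was -0.07. The TE5 values share the scramble library.

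The 13 mitochondrially encoded genes had a median of 0.02 in TE5 shSOX2, with 0 members past the fold, and 0.47 in KYSE140 shSOX2. Homologous recombination and Fanconi repair genes lay with the other proliferation lists on the lower side, with 28 of 38 below 0 at a median of -0.10 and 0 past the fold.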
